A study of Mus musculus with 15 samples.

Results

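The Toll-like receptors (TLRs) are described here across TAMs from orthotopic HCC. The genes were taken from the deposited expression table by symbol. They are Tlr1, Tlr2, Tlr3, Tlr4, Tlr5, Tlr6, Tlr7, Tlr8, Tlr9 and Tlr13, which are 10 of the 55335 genes in the table. The other mouse genes of the family, Tlr11 and Tlr12, are also listed there and are given at the end of the receptor results.

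RNA-seq was performed on TAMs, macrophages that infiltrate a tumor, which were sorted by FACS as CD11b+ F4/80+ cells from liver tumors of C57BL/6 mice. The tumors were grown from Hepa1-6 cells, a mouse hepatoma line that had been infected with lentiviruses and inoculated into the liver. The 3 groups were tumors of control cells, of cells in which miR-144 was overexpressed and of cells in which miR-451a was, with 5 samples each. The age of the mice was not given in the sources used here. The miRNAs were overexpressed in the tumor cells and not in the TAMs, so each comparison asks how the tumor cells' miRNA bore on the receptors of neighbouring macrophages. The labels do not state that the samples of a group came from separate mice, so the p-values measure the spread between these samples. The study's text gives a smaller number of replicates for its analysis of this RNA-seq than the labels do, without naming the samples, and all labelled samples were used here.

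The miRNAs that define the groups are shown as RefSeq gives them, written 5′ to 3′ with the seed (bases 2 to 8) in capitals. They lie together on mouse chromosome 11 of GRCm38.p6, plus strand, at chr11:78073047-78073066 for miR-144-3p, chr11:78073010-78073032 for miR-144-5p and chr11:78073186-78073207 for miR-451a. The seed of miR-451a differs from that of either arm of miR-144.
mmu-miR-144-3p: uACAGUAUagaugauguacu
mmu-miR-144-5p: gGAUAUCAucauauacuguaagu
mmu-miR-451a: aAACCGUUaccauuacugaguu

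TLRs are innate immune receptors that bind conserved microbial molecules and nucleic acids. Those at the cell surface mainly bind bacterial lipids, lipoproteins and flagellin, and those in endosomes bind RNA or DNA. Most of them signal through the adaptor MyD88, TLR3 signals through TRIF (encoded by Ticam1), and TLR4 uses both, which leads to NF-κB and IRF activity and to cytokine expression in macrophages.

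Expression was given as FPKM, fragments per kilobase, scaled to the mapped fragments of the sample, so the levels of genes of different length can be set side by side. The length that the values match is the union of a gene's annotated exons. It exceeds the longest transcript for all members but Tlr2 and Tlr9, by most for Tlr4 (5556 against 4077 bases). Levels, order and shares across receptors stand with that limit. The depth implied by the smallest steps between low values was 15.5 to 30.3 M fragments per sample. Markers of macrophages were found in every sample, with Csf1r at 393 to 727 FPKM and Adgre1, which encodes F4/80, at 131 to 394 FPKM. The 8 macrophage markers summed to 3521 to 3690 FPKM in control, 5419 to 5803 FPKM with miR-144 and 5357 to 5926 FPKM with miR-451a, so these markers themselves moved with the groups. One of them, Cd68, went the other way, from 1378 to 1504 FPKM in control to 835 to 976 FPKM with miR-451a. The 8 microglia markers summed to 87.4 to 100.1 FPKM in control and 238 to 283 FPKM with miR-451a, and the 5 fibroblast markers to 106 to 131 and 180 to 231 FPKM. On the Kupffer cell list Clec4f was listed at 0 in all 15 samples and Cd5l was at 3.21 to 3.65 FPKM in control and 15.3 to 46.1 FPKM with miR-451a, while the other 3 genes stayed under 1 FPKM. On the T cell list Cd3e and Cd3g were listed at 0 throughout and Cd4 was at 1.12 to 1.55 and 5.12 to 9.45 FPKM. On the plasmacytoid dendritic cell list Tcf4 was at 1.67 to 2.08 FPKM in control and 4.399 to 4.84 FPKM with miR-144, and the other 5 genes were under 1 FPKM in all samples. Csf3r made up nearly all of the neutrophil sum, which was 65.0 to 79.2 FPKM in control and 46.2 to 52.2 FPKM with miR-144. Siglecf, on the eosinophil list, was at 1.94 to 2.56 and 0.159 to 0.493 FPKM, and Cd79b, on the B cell list, at 0.0878 to 0.328 and 1.004 to 1.395 FPKM. On the monocyte list Chil3 was at 4011 to 5779 FPKM in control and below 1 FPKM in every sample of the miRNA groups, whereas Plac8 was at 2.24 to 3.61 FPKM in control and 5.11 to 9.58 FPKM with miR-451a, and Ccr2 at 0.116 to 0.259 FPKM in control and 0.939 to 1.16 FPKM with miR-144. The endothelial sum was 3.70 to 4.29 FPKM in control and 4.67 to 5.02 FPKM with miR-144, that of mast cells and basophils 0.167 to 0.451 and 0.558 to 1.74 FPKM, and that of NK cells 0.192 to 0.416 and 0.0477 to 0.168 FPKM. For Cd68, Cd5l, Cd4, Tcf4, Siglecf, Cd79b, Chil3, Plac8, Ccr2 and these sums, both miRNA groups lay on the same side of control. The hepatocyte genes Alb, Apoa1, Ttr and Serpina1a were listed at 0 in all samples, and Afp was under 1 FPKM. The macrophage markers thus matched the label, but no Alb, Apoa1, Ttr, Serpina1a or Clec4f signal was there to mark the liver as the source, and control differed from the miRNA groups in genes that mark kinds of macrophage. Whether the groups held the same kind of macrophage was not tested, nor was the part of these markers in the receptor results, and each comparison of TAMs stands with that limit. In such bulk samples, fewer cells of a type and less RNA per cell cannot be told apart.

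Each miRNA group was compared with the same 5 control samples, so both comparisons share them. Tlr2 and Tlr9 were about 8 times higher in FPKM in both miRNA groups than in control, Tlr7 about 3 times, and Tlr3, Tlr13, Tlr1 and Tlr6 less than 2 times. Tlr5 was 8.985 and 10.2 times higher, but at under 1 FPKM in every sample. Tlr8, the most abundant TLR in control TAMs, did not pass the test, nor did Tlr4, whose values varied widely within groups. No TLR passed the test between the miRNA groups.

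Fold changes were tested with limma on log2(FPKM + 1), over 11419 genes whose mean reached 1 FPKM, and a gene was called at an adjusted p under 0.05. Among the 10 TLRs, 9 reached that mean, and 7 of these were called higher and 0 lower in each miRNA group against control. The background was high. With miR-144, 47.1% of all genes tested were called higher and 20.1% lower. With miR-451a, 48.1% were called higher and 20.3% lower. The median log2 fold change of the 9 receptors was 0.55 (miR-144) and 0.47 (miR-451a against control), beside 0.13 and 0.14 for all genes tested. When each sample was centred on its median, the calls over all genes were balanced (3512 higher and 3511 lower with miR-144, 3577 higher and 3636 lower with miR-451a). The calls of the receptors were then 6 higher and 1 lower with miR-144, and 6 higher and 2 lower with miR-451a. In the measured values, all 5 samples of each miRNA group lay above all 5 control samples for Tlr1, Tlr2, Tlr3, Tlr6, Tlr7, Tlr9 and Tlr13, which are 7 of the 9. Such a separation in either direction was seen for 53.9% of all genes in the miR-144 comparison and for 55.2% in the miR-451a comparison.

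**Figure D1:**
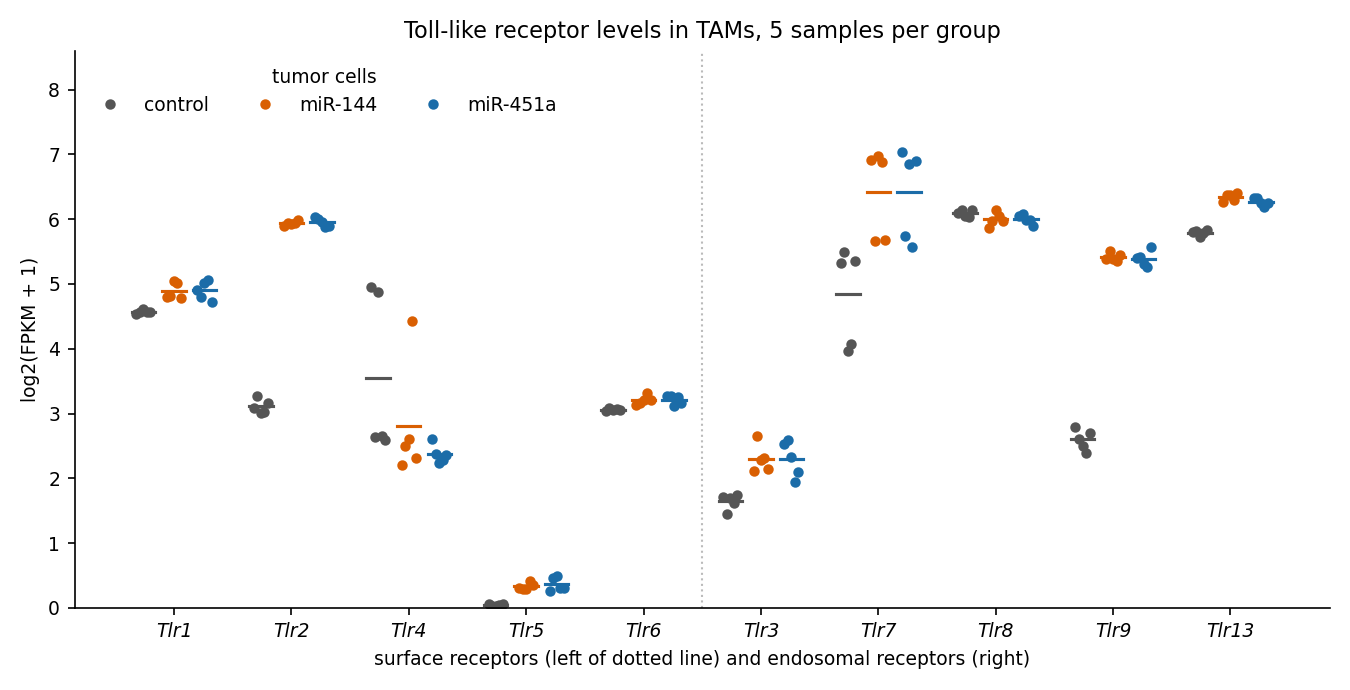
Level of each of the 10 TLRs, as log2(FPKM + 1), in the 5 samples of each group (points) with the group mean (line); surface receptors stand left of the dotted line and endosomal receptors right of it. Tlr2 and Tlr9 of the miRNA groups sit far above control with little spread, Tlr8 overlaps between the groups, and Tlr4 and Tlr7 fall on separate levels within groups.

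Among the surface receptors that reached a mean of 1 FPKM, Tlr2 had the largest fold change. TLR2 pairs with TLR1 or TLR6 and binds bacterial lipoproteins. The gene (ENSMUSG00000027995) has a single annotated transcript and lies on the minus strand at chr3:83836272-83841767 in GENCODE M21 (GRCm38). Tlr2 was at 7.49, 8.67, 7.08, 7.16 and 7.97 FPKM in the control samples. It was at 58.4, 60.7, 59.6, 60.8 and 62.7 FPKM with miR-144 and at 64.5, 62.8, 61.3, 57.6 and 58.7 FPKM with miR-451a. Every sample of the miRNA groups was thus far above the highest control sample, and the miRNA groups overlapped. The mean was 7.67 ± 0.657 FPKM in control, 60.4 ± 1.58 FPKM with miR-144 and 61.0 ± 2.84 FPKM with miR-451a (SD, n = 5), which is 7.87 and 7.95 times control. The log2 fold changes were 2.83 and 2.84 (SE 0.05 for both, adjusted p = 5.42e-16 and 4.87e-16 from limma). At the implied depth these values rest on 513 to 722 fragments per control sample and on 3018 to 5266 fragments per sample of the miRNA groups.

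The partners of TLR2 changed far less. Tlr1 (ENSMUSG00000044827, minus strand, chr5:64924679-64933563) was at 22.3, 22.8, 23.6, 22.7 and 22.8 FPKM in control. It was at 26.9, 27.0, 32.2, 31.5 and 26.6 FPKM with miR-144 and at 29.0, 26.9, 31.3, 32.4 and 25.5 FPKM with miR-451a. All values of the miRNA groups were above control, and their spread was wider than that of control. The log2 fold changes of Tlr1 were 0.32 and 0.33 (SE 0.07 for both, adjusted p = 0.000675 and 0.000505 from limma), and 0.18 in both with each sample centred on its median (adjusted p = 0.0287 for each).

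Tlr6 (ENSMUSG00000051498, minus strand, chr5:64952031-64960097), the neighbour of Tlr1 on chromosome 5, was at 7.23, 7.45, 7.33, 7.42 and 7.32 FPKM in control. It was at 7.73, 7.97, 8.28, 8.95 and 8.28 FPKM with miR-144 and at 8.64, 8.66, 7.68, 8.55 and 7.97 FPKM with miR-451a. Neither miRNA group overlapped control, but the gap between the highest control sample and the lowest miRNA sample was small. The log2 fold changes of Tlr6 were 0.15 and 0.15 (SE 0.04, adjusted p = 0.00453 and 0.00291 from limma), beside a median of 0.13 and 0.14 for all genes tested. With median centring they were 0.011 and 0.0096 (adjusted p = 0.829 and 0.846), and with quantile normalization 0.014 and 0.011 (adjusted p = 0.794 and 0.822), so the call of Tlr6 rests on the scaling. Tlr1 and Tlr6 also share sequence. Of the 50-base stretches of the longest transcript, 15.3% for Tlr1 and 12.6% for Tlr6 occur in transcripts of other genes, mostly in each other, so reads could be split between them.

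The balance between TLR2 and its partners shifted. The FPKM of Tlr2 was 0.300 to 0.381 times that of Tlr1 in the control samples, 1.85 to 2.36 times with miR-144 and 1.78 to 2.33 times with miR-451a. Against Tlr6 it was 0.964 to 1.16 times in control, 6.78 to 7.62 times with miR-144 and 6.73 to 7.99 times with miR-451a. Tlr2 therefore stood below Tlr1 in every control sample and above it in every sample of the miRNA groups.

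Tlr4 encodes the receptor for lipopolysaccharide. It (ENSMUSG00000039005, plus strand, chr4:66827584-66930284) was at 29.8, 5.19, 28.5, 5.31 and 5.03 FPKM in the control samples. With miR-144 it was at 3.62, 4.64, 5.09, 20.5 and 3.99 FPKM, and with miR-451a at 5.10, 4.21, 3.73, 3.88 and 4.12 FPKM. Controls 1 and 3 and miR-144 sample 4 were thus several times higher than the other 12 samples, and the groups overlapped. The mean was 14.8 ± 13.1 FPKM in control, 7.57 ± 7.25 FPKM with miR-144 and 4.21 ± 0.535 FPKM with miR-451a (SD, n = 5). The log2 fold change of Tlr4 was -0.73 (SE 0.52, adjusted p = 0.229 from limma) with miR-144 and -1.17 (SE 0.52, adjusted p = 0.0583) with miR-451a. An exact permutation test, which ran through all 252 ways to divide the 10 samples, gave two-sided p = 0.182 and 0.0159, unadjusted, where the smallest possible p is 0.00794. It was added after the values of Tlr4 were seen.

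The result for Tlr4 turned on single samples. Without control 1 or 3, where it was high, the log2 fold change with miR-144 was -0.38 and -0.39 (adjusted p = 0.519 and 0.511 from limma), and with miR-451a -0.82 and -0.83 (adjusted p = 0.160 and 0.159 from limma). Without miR-144 sample 4, its log2 fold change with miR-144 was -1.13 (adjusted p = 0.0454 from limma). With miR-451a the adjusted p was 0.0326 to 0.0358 without control 2, 4 or 5, and 0.0296 without miR-144 sample 4. It was 0.0400 with median centring and 0.0397 with quantile normalization.

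Tlr5, the flagellin receptor gene (ENSMUSG00000079164, plus strand, chr1:182954788-182976044), was close to the detection limit. Its FPKM was 0.0388, 0.0216, 0.0172, 0.0278 and 0.0388 in control, from as few as 2 implied fragments. It was 0.242, 0.220, 0.221, 0.340 and 0.274 FPKM with miR-144 and 0.201, 0.378, 0.410, 0.240 and 0.241 FPKM with miR-451a. All samples of the miRNA groups were above control, although still under 1 FPKM. In the limma fit over all 29540 genes above 0, the log2 fold changes of Tlr5 were 0.29 and 0.33 (SE 0.04, adjusted p = 6.18e-05 and 1.82e-05). In that fit 23.1% of genes were called higher in TAMs of the miR-144 group and 24.5% in those of the miR-451a group. The added 1 FPKM is larger than the values of Tlr5 and understates its change. With 0.1 FPKM added in its place, the log2 fold changes of Tlr5 were 1.47 and 1.58 (adjusted p = 2.99e-06 and 1.29e-06 from limma).

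**Figure D2:**
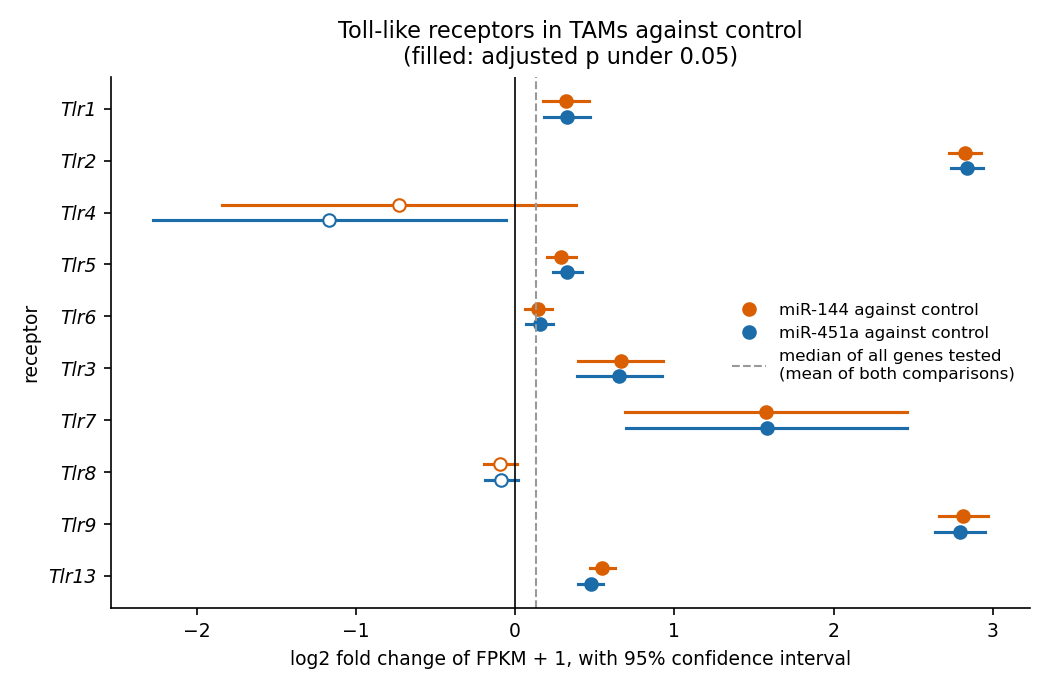
Log2 fold change of FPKM + 1 (x axis) of each TLR against control, with the 95% confidence interval from limma, for miR-144 and miR-451a; filled points have an adjusted p under 0.05, and the dashed line is the median of all genes tested. Tlr2 and Tlr9 stand near 2.8 in both comparisons, Tlr6 lies close to the dashed line, and the intervals of Tlr4 and Tlr7 are the widest.

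Among the endosomal receptors, Tlr9 changed most. TLR9 binds unmethylated CpG DNA. The gene (ENSMUSG00000045322) has a single annotated transcript on the plus strand at chr9:106222598-106226883. Tlr9 was at 5.93, 5.11, 4.68, 4.22 and 5.51 FPKM in control. It was at 40.8, 44.4, 40.6, 40.0 and 42.6 FPKM with miR-144 and at 41.4, 41.5, 38.5, 37.5 and 46.8 FPKM with miR-451a. As for Tlr2, each sample of the miRNA groups was far above every control sample. The mean was 5.09 ± 0.675 FPKM in control, 41.7 ± 1.82 FPKM with miR-144 and 41.1 ± 3.61 FPKM with miR-451a (SD, n = 5), or 8.19 and 8.08 times control. The log2 fold changes were 2.81 and 2.79 (SE 0.07 for both, adjusted p = 6.72e-14 and 6.94e-14 from limma). These values rest on 348 to 491 implied fragments per control sample and on 2236 to 3954 per sample of the miRNA groups. The ratio of Tlr9 to Tlr2 spanned 0.589 to 0.792 in control, 0.658 to 0.732 with miR-144 and 0.628 to 0.796 with miR-451a, so the ranges of this ratio overlapped between the groups.

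Tlr7, which encodes a receptor for single-stranded RNA, and Tlr8, its neighbour on the X chromosome, are described next. Tlr7 (ENSMUSG00000044583, minus strand, chrX:167304929-167330558) was at 38.9, 44.1, 14.7, 15.8 and 40.0 FPKM in control. It was at 119, 49.7, 124, 117 and 50.03 FPKM with miR-144 and at 130, 52.6, 115, 46.3 and 119 FPKM with miR-451a. Within each group, 3 samples were more than 2 times higher than the other 2, yet the lowest value of the miRNA groups was above the highest control. The mean was 30.7 ± 14.3 FPKM in control, 92.0 ± 38.5 FPKM with miR-144 and 92.7 ± 39.9 FPKM with miR-451a (SD, n = 5). The log2 fold change of Tlr7 was 1.58 in both comparisons (SE 0.41, adjusted p = 0.00351 and 0.00336 from limma).

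**Figure D3:**
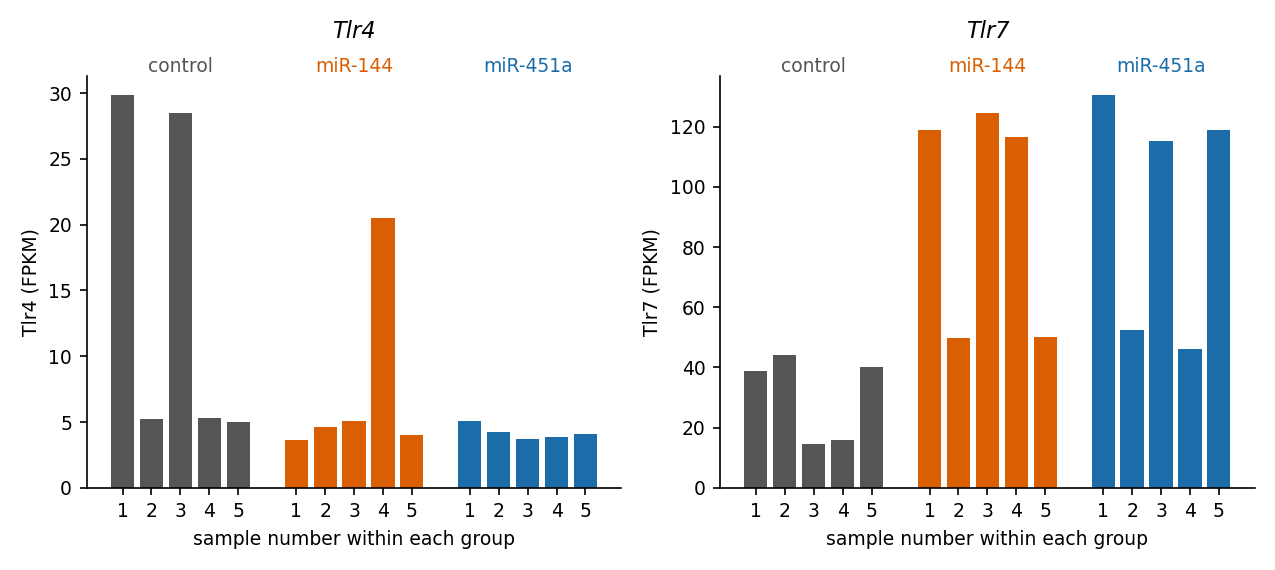
FPKM of Tlr4 (left) and Tlr7 (right) in each sample, numbered 1 to 5 within control, miR-144 and miR-451a. Tlr4 is high in controls 1 and 3 and in miR-144 sample 4, whereas Tlr7 is low in 2 samples of each group, which are not those in which Tlr4 is high, apart from control 3.

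Among the TLRs, neighbouring values within a group differed by 2 times or more for Tlr4 and Tlr7 alone. The largest ratio between neighbouring values within a group was 5.36 for Tlr4 and 2.46 for Tlr7, both in control, whereas for Tlr1, Tlr2, Tlr6, Tlr8, Tlr9 and Tlr13 no such ratio passed 1.17. For the least abundant receptors it reached 1.33 (Tlr3, with miR-144) and 1.57 (Tlr5, with miR-451a). Tlr4 has 4 annotated transcripts and Tlr7 has 6. Gaps of at least 2 times within a group were found in 27 of 877 genes with 1 transcript (3.08%) and in 122 of 5760 genes with 2 or more (2.12%), among genes whose mean reached 5 FPKM. The files do not show whether these levels were in the RNA or arose when expression was quantified, which was not tested, and the values and fold changes of Tlr4 and Tlr7 stand with that limit.

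Tlr8 (ENSMUSG00000040522, minus strand, chrX:167242696-167264329) was the highest TLR in control. It was at 67.1, 69.4, 65.0, 64.6 and 69.7 FPKM in control, at 57.1, 61.6, 69.2, 65.5 and 61.6 FPKM with miR-144 and at 65.2, 66.9, 62.6, 62.5 and 58.6 FPKM with miR-451a. The groups overlapped. The log2 fold change of Tlr8 was -0.09 with miR-144 (95% interval -0.20 to 0.01, adjusted p = 0.105 from limma) and -0.09 with miR-451a (-0.19 to 0.02, adjusted p = 0.120). Relative to the median of all genes it was lower. With median centring the log2 fold changes were -0.23 and -0.23 (adjusted p = 0.000636 and 0.000494), and with quantile normalization -0.09 and -0.08 (adjusted p = 0.135 and 0.166). As TPM they were closer to 0, at -0.023 and -0.0064 (adjusted p = 0.720 and 0.9215). Without miR-144 sample 3 it was also called lower with miR-144, at -0.13 (adjusted p = 0.0239).

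Tlr13 encodes a receptor for bacterial ribosomal RNA that is found in mice and not in humans. The gene (ENSMUSG00000033777, plus strand, chrX:106143204-106160493) was at 54.9, 55.5, 52.1, 54.1 and 55.8 FPKM in control. It was at 76.1, 81.5, 81.8, 77.9 and 83.7 FPKM with miR-144 and at 79.6, 79.6, 74.7, 71.9 and 74.8 FPKM with miR-451a. The groups were clearly apart from control with little spread. The log2 fold changes were 0.55 and 0.47 (SE 0.04 for both, adjusted p = 2.71e-09 and 1.42e-08 from limma). The FPKM of Tlr13 was 0.799 to 0.839 times that of Tlr8 in control, 1.18 to 1.36 times with miR-144 and 1.15 to 1.28 times with miR-451a, so the order of these receptors turned in every sample.

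Tlr3, whose product binds double-stranded RNA, was the lowest of the endosomal receptors. The gene (ENSMUSG00000031639, minus strand, chr8:45395665-45411080) was at 2.28, 1.73, 2.24, 2.07 and 2.34 FPKM in control. It was at 3.34, 5.31, 3.88, 3.99 and 3.42 FPKM with miR-144 and at 4.75, 5.02, 4.04, 2.85 and 3.29 FPKM with miR-451a. Its values in the miRNA groups were above all controls but spread widely. The log2 fold changes of Tlr3 were 0.66 and 0.65 (SE 0.12, adjusted p = 0.000259 and 0.000269 from limma). Of its 50-base stretches, 1.56% are shared with another gene, mostly Gm45542.

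Of the other genes of the family, Tlr11 was at 0.0127 to 0.0774 FPKM in control, 0.0803 to 0.152 FPKM with miR-144 and 0.0538 to 0.129 FPKM with miR-451a. In the fit over all 29540 genes, its log2 fold changes were 0.11 and 0.07 (adjusted p = 0.000984 and 0.0236 from limma). Tlr12 was at 0.0395 to 0.174 FPKM over all samples and did not pass the test (adjusted p = 0.897 and 0.747). Both lie near the limit of 3 fragments, which corresponds to 0.0590 FPKM for Tlr11 and 0.0608 FPKM for Tlr12 in the shallowest sample.

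The order of the TLRs changed accordingly. In control it ran from Tlr8 (67.1 FPKM on average) through Tlr13 (54.5), Tlr7 (30.7), Tlr1 (22.8), Tlr4 (14.8), Tlr2 (7.67), Tlr6 (7.35), Tlr9 (5.09) and Tlr3 (2.13) to Tlr5 (0.0288). The neighbours Tlr7 and Tlr1, Tlr1 and Tlr4, Tlr4 and Tlr2, and Tlr2 and Tlr6 overlapped in their values. With miR-144 it ran Tlr7, Tlr13, Tlr8, Tlr2, Tlr9, Tlr1, Tlr6, Tlr4, Tlr3 and Tlr5, and with miR-451a it was the same. In both miRNA groups Tlr7 overlapped Tlr13, Tlr8 overlapped Tlr2, and Tlr4 overlapped Tlr3. With miR-144 Tlr6 also overlapped Tlr4.

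The summed FPKM of the 10 receptors was 183 to 236 in control, 343 to 426 with miR-144 and 324 to 429 with miR-451a. Without Tlr4 and Tlr7, whose values fell on separate levels, the other 8 summed to 162 to 171, 271 to 296 and 273 to 293 FPKM. In both sums every sample of the miRNA groups was above control. As a median share of the 10-receptor sum, Tlr8 made up 31.7% in control, 16.3% in the miR-144 group and 15.7% in the miR-451a group. The share of Tlr2 was 3.68%, 14.9% and 15.3%, and that of Tlr9 was 2.33%, 10.4% and 11.6%. The 5 endosomal receptors together held 76.8%, 71.4% and 73.8%, with overlapping ranges (67.6% to 80.1% in control, 70.3% to 75.4% and 68.3% to 75.8%).

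**Figure D4:**
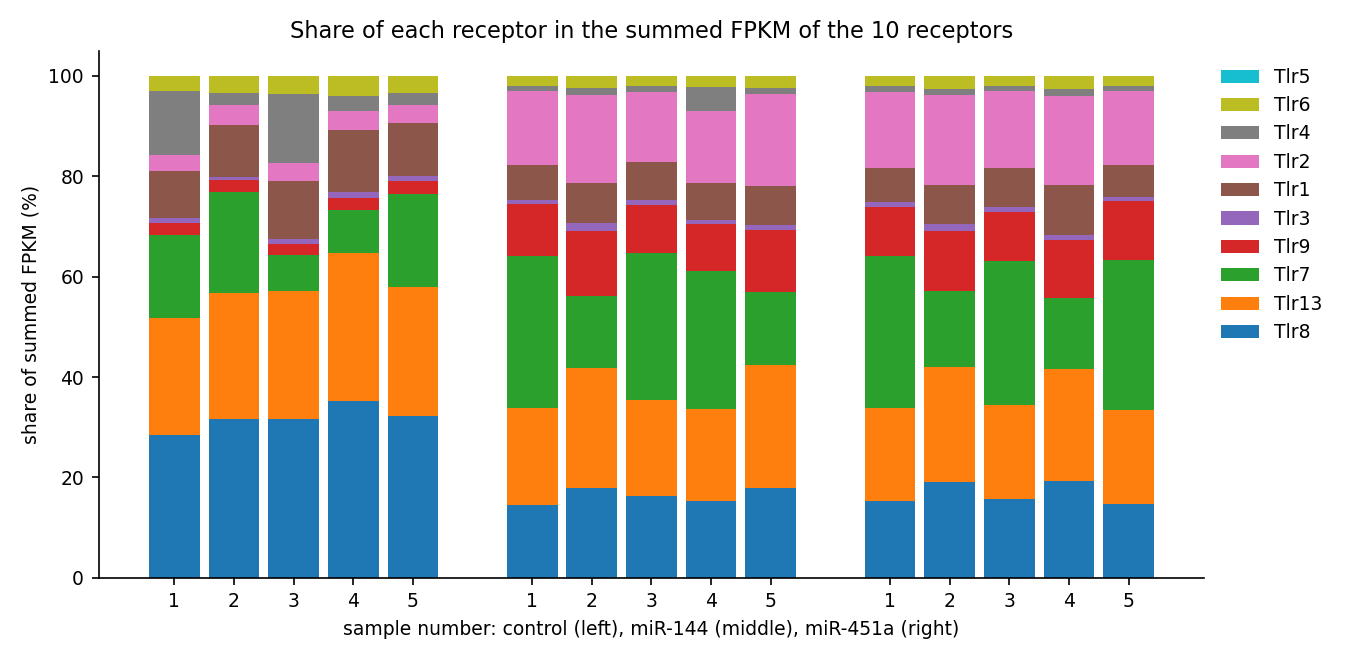
Share of each TLR in the summed FPKM of the 10 receptors (y axis, percent) in each of the 15 samples. Tlr8 takes 28.4% to 35.2% in control samples and 14.5% to 19.3% in the miRNA groups, where Tlr2 and Tlr9 take larger shares.

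Between the miRNA groups, 0 of the 9 receptors were called, as were 0% of all 11419 genes (limma, smallest adjusted p = 0.0752, and 596 genes at an unadjusted p under 0.05). No TLR was separated between these groups, beside 0.849% of all genes. The difference of miR-451a from miR-144 in log2(FPKM + 1) was 0.01 for Tlr2 (95% interval -0.09 to 0.11) and -0.02 for Tlr9 (-0.18 to 0.13). It was nearest to the threshold for Tlr13, at -0.07 (-0.15 to 0.00, unadjusted p = 0.0542 from limma). For Tlr7 the interval was -0.88 to 0.89 and for Tlr4 -1.55 to 0.67, so these samples do not narrow down a difference in either gene.

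As the fold changes differed so much in size, the sequence before 4 genes is shown: Tlr2 and Tlr9 with the largest fold changes among the receptors that reached a mean of 1 FPKM, Tlr13 with a smaller one, and Tlr8, which was not called. RefSeq promoter windows of GRCm38.p6, 250 bases before to 50 after a gene's start, were found for 8 of the 10 members, all but Tlr4 and Tlr7. They were searched on both strands for GAGGAA (the core of sites for ETS factors such as PU.1), GAAA in 2 copies that stand 2 bases apart (an interferon response type element), TGANTCA (the AP-1 site) and the NF-κB consensus. Only bases upstream of the annotated gene are printed, on the gene's strand, with matches in capitals. They are chr3:83841768-83841858 (minus) for Tlr2, chr9:106222348-106222597 (plus) for Tlr9, chrX:106143025-106143203 (plus) for Tlr13 and chrX:167264330-167264579 (minus) for Tlr8.
Tlr2: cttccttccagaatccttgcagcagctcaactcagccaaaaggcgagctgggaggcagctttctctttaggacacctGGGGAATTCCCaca
Tlr9: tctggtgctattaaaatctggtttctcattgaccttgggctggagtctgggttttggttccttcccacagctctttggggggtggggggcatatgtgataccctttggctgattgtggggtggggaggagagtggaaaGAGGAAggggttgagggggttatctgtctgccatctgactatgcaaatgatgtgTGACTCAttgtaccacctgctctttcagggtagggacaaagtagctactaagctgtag
Tlr13: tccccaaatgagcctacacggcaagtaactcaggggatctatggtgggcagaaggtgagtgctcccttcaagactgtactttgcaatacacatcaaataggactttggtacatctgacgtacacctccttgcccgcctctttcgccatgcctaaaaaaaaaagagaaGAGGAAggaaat
Tlr8: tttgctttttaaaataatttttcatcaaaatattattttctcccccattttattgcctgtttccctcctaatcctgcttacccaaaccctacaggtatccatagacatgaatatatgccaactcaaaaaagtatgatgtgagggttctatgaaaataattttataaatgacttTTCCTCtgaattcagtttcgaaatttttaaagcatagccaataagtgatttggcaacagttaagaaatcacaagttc

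The capitals mark an NF-κB match in Tlr2, a GAGGAA and a TGANTCA match in Tlr9, and a GAGGAA match in Tlr13 and, on the opposite strand, in Tlr8. Over the whole windows, Tlr2 held 2 NF-κB sites, Tlr3 held 1, and Tlr9 held 2 GAGGAA sites. Tlr1 held 1 GAGGAA site in 1 of its 2 windows, and Tlr6 held 1 pair of GAAA copies in 1 of its 2 windows. Tlr5 held none of these letters. Of all 32851 promoter windows, 28.3% held GAGGAA, 3.44% the GAAA pair, 7.81% TGANTCA and 4.51% the NF-κB consensus. A match describes the sequence, and binding was not measured.

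The genes whose pattern over the 15 samples was most like each receptor were found by Pearson correlation of log2(FPKM + 1) over 11303 genes outside the family. The most alike gene was Ms4a6b for Tlr2 (r = 0.999), Plxnb2 for Tlr9 (r = 0.999), Aagab for Tlr13 (r = 0.988), Cp for Tlr1 (r = 0.981) and Tram2 for Tlr3 (r = 0.966). For Tlr7 it was Acin1 (r = 0.929), for Tlr6 Ccdc71l (r = 0.924), for Tlr4 Mir692-2 (r = 0.865) and for Tlr8 Strn (r = 0.849). All points share the 3 groups, and 1560 genes had an r over 0.95 with Tlr2 and 1548 with Tlr9, so a high r is common for a gene that differs between control and both miRNA groups.

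The pathway around the receptors was followed with 89 genes in 8 lists, of which 77 reached a mean of 1 FPKM. With miR-144, 43 were called higher and 19 lower, and with miR-451a 44 and 20. Over all genes tested, 47.1% were called higher and 20.1% lower with miR-144, and 48.1% and 20.3% with miR-451a, and the count of each list stands against these shares. The median log2 fold change was 0.30 in both, beside 0.13 and 0.14 for all genes. With median centring the calls were 39 higher and 23 lower, and 38 higher and 25 lower. Between the miRNA groups 0 of the 77 genes were called.

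**Figure D5:**
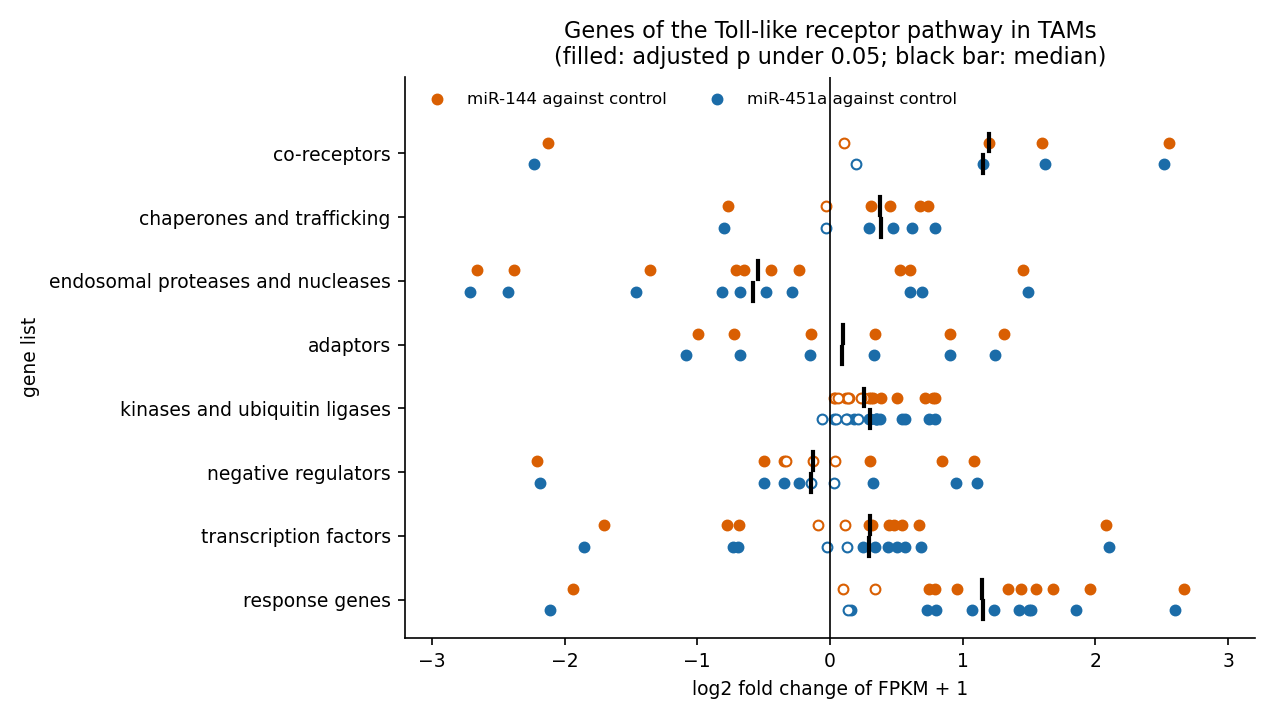
Log2 fold change of FPKM + 1 against control (x axis) for the genes of each list around the TLRs; each point is a gene, filled where the adjusted p is under 0.05, and the black bar is the median of the list. The co-receptors and response genes have the highest medians, 1.20 and 1.15 with miR-144, and the endosomal proteases and nucleases the lowest, -0.55.

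Of the 6 co-receptors, 5 were tested, 3 were called higher and 1 lower in each miRNA group. Cd14, which hands lipopolysaccharide and other ligands to TLR4 and TLR2, was at 28.8 to 39.3 FPKM in control, 165 to 254 FPKM with miR-144 and 158 to 239 FPKM with miR-451a (log2 fold changes 2.55 and 2.51, adjusted p = 4.07e-10 and 4.63e-10 from limma). Ly86 and Cd180, which encode the MD-1 and RP105 pair related to the TLR4 complex, rose by 1.60 and 1.20 with miR-144. Cd36, a scavenger receptor that assists TLR2 and TLR6, fell from a mean of 200.3 FPKM to 45.4 and 41.8 FPKM. Ly96, which encodes the MD-2 partner of TLR4, was at 7.62, 8.20 and 8.81 FPKM on average and did not pass the test (adjusted p = 0.341 and 0.0725). Its log2 fold change with miR-144 turned from 0.10 to -0.03 with median centring and to -0.02 with quantile normalization, and as TPM Ly96 was called higher with miR-451a, at 0.30 (adjusted p = 0.0136 from limma).

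Of the 6 chaperones and trafficking genes, 4 were called higher and 1 lower in each miRNA group. With median centring, 4 were higher and 2 lower. Unc93b1, which carries the endosomal TLRs to endosomes, was at a mean of 201 FPKM in control, 337 FPKM with miR-144 and 349 FPKM with miR-451a (log2 fold changes 0.74 and 0.79). Slc15a4, an endolysosomal transporter needed for TLR7 and TLR9 signaling, and Cnpy3, a cofactor in the folding of TLRs, rose by 0.68 and 0.45 with miR-144. Hsp90b1, the chaperone gp96 that folds most TLRs, fell from 217 FPKM to 127 and 125 FPKM.

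The endosomal proteases and nucleases, which cleave the endosomal receptors or process their nucleic acid ligands, went both ways: 3 of the 10 tested were called higher and 7 lower in each group. Ctsl (cathepsin L) was at a mean of 437 FPKM in control, 68.4 FPKM with miR-144 and 65.8 FPKM with miR-451a, and Ctsk at 56.6, 10.1 and 9.78 FPKM. The lysosomal exonucleases moved apart, with Pld4 at 89.0, 245 and 251 FPKM and Pld3 at 360 FPKM in control and 140 and 130 FPKM in the miRNA groups.

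Of the 6 adaptors tested, 3 were called higher and 3 lower in each group. Myd88 was at 18.4 to 22.8 FPKM in control, 36.4 to 45.0 FPKM with miR-144 and 36.5 to 42.0 FPKM with miR-451a (log2 fold change 0.90 in both, adjusted p = 8.81e-09 and 8.33e-09 from limma). Ticam1 moved the other way, at 19.0 to 21.6 FPKM in control, 10.5 to 13.0 FPKM with miR-144 and 11.5 to 13.4 FPKM with miR-451a (log2 fold changes -0.72 and -0.68, adjusted p = 3.06e-08 and 5.97e-08). Pik3ap1, which links TLRs to PI3K, rose by 1.31 and 1.24, and Scimp, a TLR adaptor in macrophages, fell by 0.99 and 1.08.

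Of the 17 kinases and ubiquitin ligases, 11 were called higher and 0 lower in each miRNA group, with medians of 0.26 and 0.30, beside 47.1% and 48.1% of all genes called higher and 20.1% and 20.3% lower. With median centring, 7 were higher and 0 lower with miR-144, and 7 higher and 3 lower with miR-451a. Peli1, Ikbke and Tab2 rose by 0.77, 0.72 and 0.79 with miR-144, and Irak2 by 0.51. Among the 9 negative regulators tested, 3 were called higher in each group, and 3 lower with miR-144 and 4 with miR-451a. With median centring or quantile normalization, 5 were lower with miR-144 and 4 with miR-451a. Irak3 and Nfkbia rose by 0.84 and 1.09 with miR-144. Tollip fell by 0.49, and Socs1 was at a mean of 4.75 FPKM in control and 0.243 and 0.267 FPKM in the miRNA groups.

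Of the 12 transcription factors, 7 were called higher and 3 lower in each group. With median centring 4 were lower in each group, and 7 (miR-144) and 6 (miR-451a) were higher. Irf7, which drives type I interferon expression downstream of TLR7 and TLR9, was at 5.04 to 9.39 FPKM in control, 27.1 to 45.1 FPKM with miR-144 and 27.2 to 46.6 FPKM with miR-451a (log2 fold changes 2.08 and 2.11). Atf3, a repressor of TLR response genes, fell from a mean of 222 FPKM to 67.7 and 60.7 FPKM, and the AP-1 genes Jun and Fos fell by 0.77 and 0.68 with miR-144. Of the 19 response genes, 12 were tested, 9 were called higher in the miR-144 group and 10 in the miR-451a group, and 1 lower in each. Cxcl10 was at 0.371, 7.74 and 7.39 FPKM on average, Ccl4 at 7.91, 33.8 and 31.6 FPKM, and Tnf at 1.62, 7.39 and 6.41 FPKM. Acod1, which encodes the enzyme that makes itaconate, was lower, at 13.7, 2.87 and 2.50 FPKM. Il12b was listed at 0 in all samples. In the fit over all 29540 genes, Nos2 and Il1a, both under 1 FPKM, were called lower in each miRNA group. The log2 fold changes were -0.29 and -0.30 for Nos2 (adjusted p = 0.000226 and 0.000155 from limma). They were -0.39 and -0.43 for Il1a (adjusted p = 8.62e-05 and 3.25e-05). That fit called 2851 (miR-144) and 2862 (miR-451a) genes lower. With miR-144 alone, Il6 was called lower and Ptgs2 higher, and Cxcl1 and Ifnb1 were not called.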

How the data were processed

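RNA-seq of TAMs was analysed in 15 samples, 5 per group, grouped by the sample labels. The authors sequenced on an Illumina HiSeq and deposited FPKM per gene; the submitters' processing notes name FastQC 0.11.2, STAR and StringTie, and the genome build and annotation are not given in the sources used here. Of 9407 genes with several transcripts, 98.9% had, in every sample, an FPKM that gave a whole number of 1e-06 units when multiplied by the length of the union of the GENCODE M21 exons (within 0.05 of a unit), so coordinates are given in that annotation. FPKM is divided by depth and length, so counts were not used: only 36.3% to 49.5% of low values fell within 0.05 of a whole fragment (10% by chance).

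Groups were compared with limma 3.58.1 (R 4.3.3) on log2(FPKM + 1), with 3 group means in 1 fit, a mean-variance trend, Benjamini-Hochberg adjustment and a minimum mean of 1 FPKM; the step was tested on simulated data. Members and lists were chosen with earlier results of these data known, so no p was computed over a list. From each list, up to 4 called genes with the largest mean change were named, plus Unc93b1, Myd88, Ticam1, Ly96 and Cd14. The alternatives were a pseudocount of 0.1 FPKM, no filter, TPM, median centring, a minimum mean of 5 FPKM, quantile normalization, a replicate block, no trend, 2 groups only and each sample left out. The exact permutation test of Tlr4 and Tlr7 was added after seeing their values; for Tlr7, whose groups did not overlap, it could only return its smallest p and was not used. Samples of a group were compared in pairs, and none agreed within counting error (lowest mean chi-square per gene 3.13). Promoter and miRNA sequences are from RefSeq. Sequence and depth steps used Python 3.11.15.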

Additional observations from a re-analysis of the deposited data

Results flagged for a closer look

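In groups of 5 samples, 129 groups over 43 named genes were examined for a sample far from the others by Dixon's criterion, and 7 were found, where chance gives about 6.45. Among the TLRs the only such value was Tlr4 in miR-144 sample 4, at 20.5 FPKM beside 5.09 FPKM for the next. Cd36 had its highest control value in sample 4, at 220.7 FPKM, and its lowest miR-451a value in sample 5, at 38.0 FPKM. Ctsk was low in control 3, at 53.4 FPKM. Irak2 was high in miR-144 sample 5, at 9.09 FPKM, and in miR-451a sample 1, at 12.5 FPKM. Nfkbia was high in miR-451a sample 5, at 54.7 FPKM. The cause of these values was not tested.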

How the results depend on the processing

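Against control, the rises of Tlr1, Tlr2, Tlr7, Tlr9 and Tlr13 kept their direction and an adjusted p under 0.05 in every alternative run. So did Tlr3 where it was tested (its mean is under 5 FPKM). Tlr5 did so in the runs taken for it, which left out the higher minimum and median centring. Median centring was also run over all 29540 genes above 0, but its value for Tlr5 was not included here. The count of receptors called was 6 to 8 in each miRNA group over all alternatives, and 0 between the miRNA groups; the count of pathway genes called was 52 to 68 with miR-144 and 53 to 67 with miR-451a. For Tlr4, Tlr6 and Tlr8 the call against control changed in some runs, as given with their values, and the direction did not. Differences between the miRNA groups that were near 0 turned in sign, without a call: with median centring to -0.0010 for Tlr1, -0.0015 for Tlr6, -0.0070 for Tlr7 and -0.0060 for Tlr8, with quantile normalization to -0.0022 for Tlr6, and with TPM to 0.0013 for Tlr3. With each sample left out they spanned -0.030 to 0.053 for Tlr1, -0.0076 to 0.032 for Tlr2, -0.080 to 0.082 for Tlr3, -0.011 to 0.036 for Tlr6, -0.19 to 0.22 for Tlr7, -0.030 to 0.039 for Tlr8 and -0.068 to 0.010 for Tlr9. The cause was not tested. The sample numbers 1 to 5 were not taken as pairs, since only 8 of 15 same-number pairs correlated by more than 0.1 (-0.15 to 0.26, mean 0.076, beside a mean of -0.019 for pairs of other numbers), and 3 of 15 samples correlated best with their own number in both other groups. With the number as a replicate block, 7 receptors were called in each miRNA group and 0 between them. Depth limits Tlr5, Tlr11 and Tlr12.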
